A study of Mus musculus with 6 samples.

Results

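The chemokine receptor genes examined here are Ccr7, Ccr9, Cxcr4, Cxcr6, Cxcr5, Ccr4, Ccr10, Ccr2 and Cx3cr1. They were chosen by symbol, 9 of the 55450 genes in the table, and each had a single row. RNA-seq compared 3 CD103KO with 3 WT samples of naive CD8 T cells sorted from mouse lymph node as negative for Ly6C and CXCR3. The CD103KO group is Itgae-/-, and the WT group is C57BL/6. CD103 is the integrin alpha E chain, the product of Itgae. No treatment, age, or deleted exon is given in the sources used here, nor whether libraries came from separate animals. P-values therefore measure the spread between these samples, which may be technical. In bulk RNA, fewer cells that express a receptor and less RNA per cell cannot be told apart.

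Chemokine receptors are membrane proteins with a bundle of helices that couple to inhibitory G proteins and steer cells up gradients of chemokines. A naive CD8 T cell uses CCR7 to enter lymph nodes. CCR9 and CXCR4 are carried over from thymic development, and CXCR4 also marks cells held near CXCL12-producing stroma. Receptors such as CCR2, CX3CR1, CXCR6, CCR4 and CCR10 are better known from effector, memory or tissue-homing T cells. The comparison asks whether loss of CD103, an adhesion receptor for E-cadherin, goes with another set of homing receptor transcripts.

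Libraries held 68292475 to 94347034 expected counts. A single count is worth 0.0104 to 0.0147 CPM (counts scaled to TMM-adjusted library size). Itgae was at 61.1 to 67.9 CPM in CD103KO and 460 to 495 CPM in WT, which fits the labels. CD8 identity was clear: Cd8a was at 1458 to 1506 CPM in CD103KO and 1437 to 1464 CPM in WT. Xist was at 0 to 2 counts in the CD103KO libraries, and at 5012, 7628 and 1 counts in WT replicates 1, 2 and 3. Xist state is therefore partly confounded with group, as WT replicate 3 alone among the WT libraries was like CD103KO in it. WT replicate 3 also stood apart in Ccl5, a chemokine of memory and effector CD8 T cells, at 34.9 CPM, against 4.12 to 6.45 CPM in CD103KO and 2.91 and 4.78 CPM in the other WT libraries. Log2 fold changes with and without that library are given for Cxcr5, Ccr10, Cx3cr1, Ccr2, Ccl5 and Gzmk.

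The 9 receptors fell into an abundant and a scarce set. Ccr7, Ccr9, Cxcr4 and Cxcr6 averaged above 100 CPM in both groups, and the other 5 averaged below 5 CPM. Levels of different genes are compared here per kilobase of annotated exon. On that scale Ccr7 led, at 224 ± 3.22 CPM per kilobase in CD103KO and 246 ± 3.01 in WT (SD, n = 3 each). Cxcr6 followed at 85.4 ± 5.39 in CD103KO and 93.8 ± 3.11 CPM per kilobase in WT. Cxcr4 stood beside it at 82.6 ± 8.37 in CD103KO and 96.8 ± 10.4 CPM per kilobase in WT. The order of Cxcr6 and Cxcr4 differed between the groups, and their libraries overlapped in each group, so these neighbours did not differ beyond their spread. Ccr9 came next, at 32.1 ± 1.87 in CD103KO and 30.5 ± 2.81 CPM per kilobase in WT, apart from its neighbours in every library. Its annotated exons sum to 10260 bases while its longest transcript has 5197. With the longest transcript as length, its level was 63.3 in CD103KO and 60.3 CPM per kilobase in WT, still below Cxcr6 and Cxcr4 and above Cxcr5. Shorter transcripts among its 6 would give a higher level and were not tried, so its place below Cxcr6 and Cxcr4 rests on these lengths. Cxcr5, at 1.40 ± 0.247 in CD103KO and 1.09 ± 0.345 in WT, and Ccr4, at 1.14 ± 0.313 in CD103KO and 0.948 ± 0.155 CPM per kilobase in WT, overlapped. Ccr10, Cx3cr1 and Ccr2 lay lowest, from 0.0564 to 0.414 in CD103KO libraries and from 0.0786 to 0.430 CPM per kilobase in WT libraries, and they overlapped one another in both groups.

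**Figure D1:**
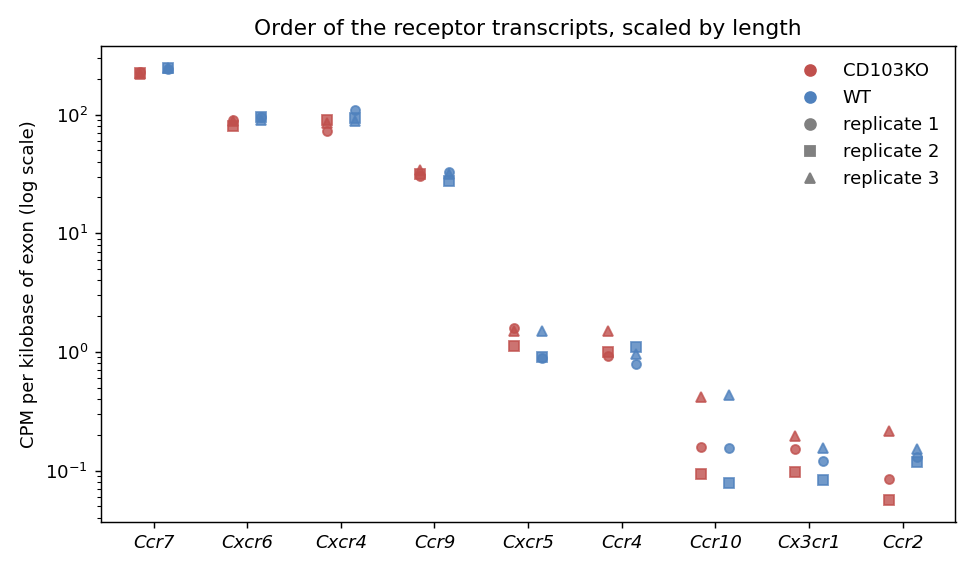
Receptor transcript level per kilobase of annotated exon (CPM per kilobase, log scale) in each library, CD103KO left of WT within a gene, with a marker shape for each replicate number. Ccr7, Cxcr6, Cxcr4 and Ccr9 lie above 25 CPM per kilobase in each library, and the other genes lie below 2.

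None of the 9 receptor genes passed at an adjusted p of 0.05 between CD103KO and WT (edgeR quasi-likelihood test over 13470 genes), where 0.223% of tested genes did. All 9 were tested. At an unadjusted p under 0.05 (edgeR) there were 3 members, Ccr7, Cxcr4 and Cxcr6, each lower in CD103KO. With each library left out in turn this count ran from 1 (without WT replicate 1) to 4 (without CD103KO replicate 3, or without WT replicate 3), and Ccr7 was in it each time. Over all tested genes, those 3 fits gave 889, 764 and 1539 genes at that level. The full range was 706 (without CD103KO replicate 2) to 1953 (without CD103KO replicate 1). With all 6 libraries it was 1176 genes, a share of 8.73%, made up of 4.53% higher and 4.2% lower. Libraries of the groups did not overlap for 2 members, Ccr7 and Cxcr6, against 14.2% of tested genes (6.82% higher and 7.36% lower in CD103KO). The median log2 fold change was 0.03 over the members and -0.0025 over all tested genes. DESeq2 called 0 members (0.822% of genes called) and limma-voom 0 (0.215%). Summed over the 9 genes, levels were 1077 to 1123 CPM in CD103KO and 1130 to 1205 CPM in WT. The abundant genes held nearly all of this sum, with Ccr7 averaging 443 CPM in CD103KO and 486 CPM in WT. The log2 fold change was positive for 5 members and negative for 4.

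**Figure D2:**
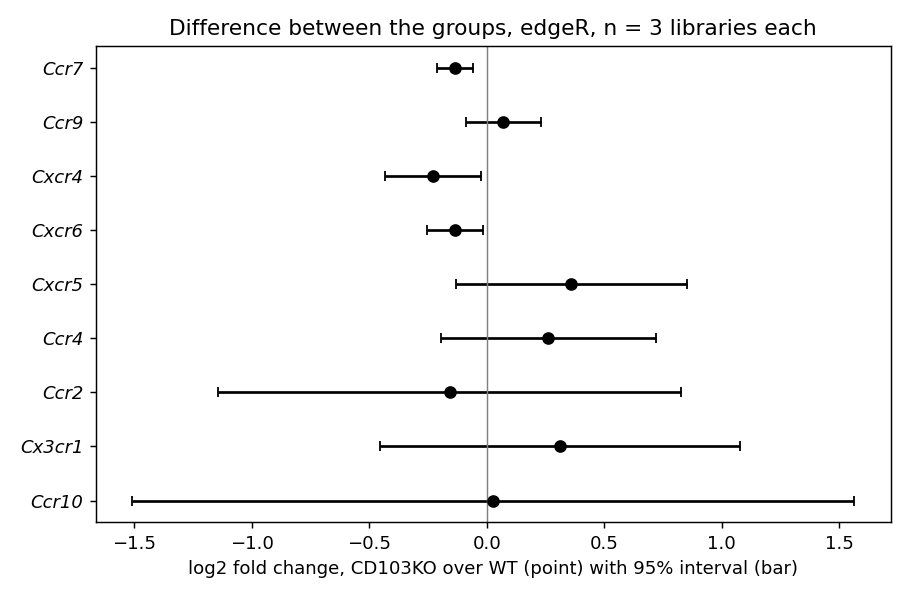
The log2 fold change of each receptor gene, CD103KO over WT, with its 95% interval from edgeR (3 libraries per group). Intervals are narrow for the abundant genes (Ccr7 from -0.21 to -0.06) and wide for the scarce ones (Ccr10 from -1.51 to 1.56).

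Ccr7 encodes the receptor for CCL19 and CCL21 that admits naive T cells to lymph nodes (ENSMUSG00000037944.8, GRCm38, chr11:99144196-99155077, minus strand). It was at 450, 441 and 437 CPM in CD103KO replicates 1, 2 and 3, against 480, 487 and 492 CPM in WT replicates 1, 2 and 3. Each CD103KO library lay below each WT library, and both groups were tight. On the log2 scale it differed by -0.14 (SE 0.03; edgeR adjusted p = 0.303), a level of 91.1% of WT with a 95% interval of 86.3% to 96.1%. Ccr7 lies 26.0 Mb from Itgae on the same chromosome, where Ccr10 (log2 fold change 0.03) lies 28.0 Mb from Itgae. Under the 17 alternative settings the log2 fold change of Ccr7 stayed between -0.15 and -0.12. The adjusted p was lowest with DESeq2, at 0.144, and highest without CD103KO replicate 2, at 0.968.

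Cxcr4, the receptor for CXCL12 (ENSMUSG00000045382.6, chr1:128588199-128592293, minus strand), was at 132, 162 and 154 CPM in CD103KO and 196, 170 and 159 CPM in WT. CD103KO replicate 2 lay above WT replicate 3, so the groups overlapped. WT replicate 3 was the WT library nearest to the CD103KO levels. Its log2 fold change was -0.23 (SE 0.09; edgeR adjusted p = 0.515), or 85.3% of WT with a 95% interval of 74.1% to 98.2%. It was -0.14 without WT replicate 1 and -0.15 without CD103KO replicate 1, where the unadjusted p of the edgeR model was 0.126 and 0.101. With a term for Xist reads, which sets CD103KO against WT replicate 3, it was -0.09 (adjusted p = 0.878, edgeR). What else sets WT replicates 1 and 2 apart from WT replicate 3 cannot be told apart from Xist state.

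Cxcr6, the receptor for the membrane-bound chemokine CXCL16 (ENSMUSG00000048521.8, chr9:123806475-123811760, plus strand), was at 173, 153 and 169 CPM in CD103KO and 185, 184 and 174 CPM in WT. The groups did not overlap, but CD103KO replicate 1 and WT replicate 3 nearly met. Between the groups the log2 difference was -0.13 (SE 0.05; edgeR adjusted p = 0.515), or 91.1% of WT with a 95% interval of 83.9% to 98.9%. It was -0.09 without CD103KO replicate 2 and -0.08 with the Xist term. The unadjusted p (edgeR) was above 0.05 without CD103KO replicate 2, WT replicate 1 or WT replicate 2. Cxcr6 lies inside Fyco1, a gene on the opposite strand, and their exons share 0 bases. Fyco1 was at 23.0 to 29.4 CPM in CD103KO and 22.9 to 30.3 CPM in WT, below Cxcr6 in each library. Among markers of memory and effector CD8 T cells, Cd44 was at 15.7 to 20.9 CPM in CD103KO and 16.1 to 19.5 CPM in WT. Of that list, 0 of 14 tested markers were called (edgeR, with 2 higher and 1 lower where unadjusted p was under 0.05). DESeq2 and limma-voom also called 0 of them, and 0 in each list described here other than B cell markers.

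Ccr9, the gut- and thymus-homing receptor for CCL25 (ENSMUSG00000029530.16, chr9:123678439-123784330, plus strand), was at 312, 325 and 350 CPM in CD103KO and 337, 281 and 321 CPM in WT. The groups overlapped, with WT replicate 2 lowest and CD103KO replicate 3 highest. CD103KO over WT gave a log2 fold change of 0.07 (SE 0.07; edgeR adjusted p = 0.800), and the 95% interval ran from 94.1% to 117% of WT. Without WT replicate 2 the log2 fold change was -0.0035. A gene annotated on the opposite strand, AC165425.1, shares 1932 exon bases with Ccr9 but had 2.3 to 21.5 counts per library, against 22121 to 26921 for Ccr9.

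**Figure D3:**
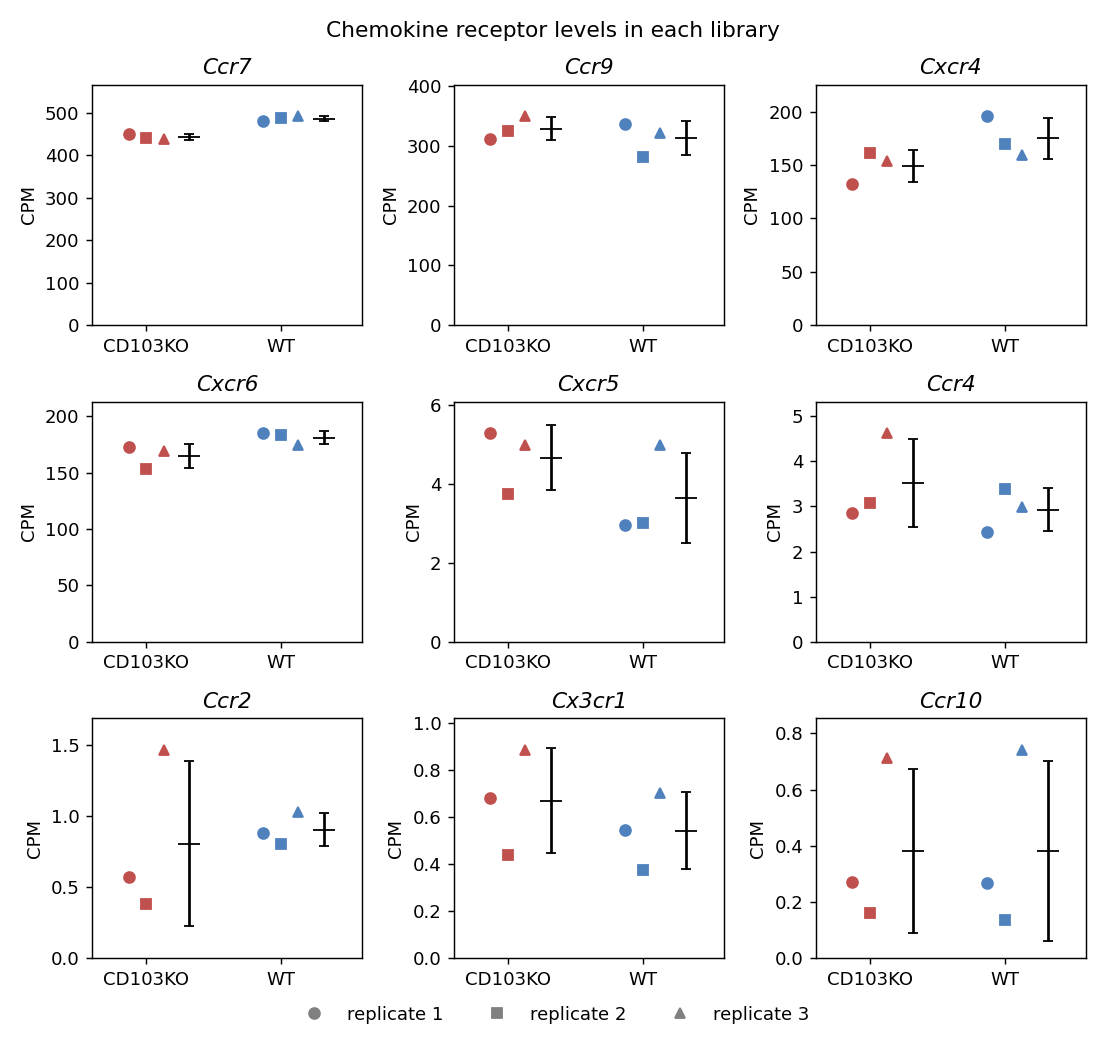
Level of each receptor gene in CPM (y axes start at 0) in the 3 CD103KO and 3 WT libraries, with the mean and SD as black bars and a marker shape for each replicate number. Ccr7 separates the groups (437 to 450 CPM in CD103KO, 480 to 492 CPM in WT), while replicate 3 is highest in both groups for Ccr2, Cx3cr1 and Ccr10.

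Chromosome 9 carries 6 of the 9 members. Ccr9, Cxcr6 and Ccr2 lie there in that order on the same strand, with 22.1 kb between Ccr9 and Cxcr6 and 290.2 kb between Cxcr6 and Ccr2. Within that stretch the level per kilobase was 32.1, 85.4 and 0.119 CPM in CD103KO for Ccr9, Cxcr6 and Ccr2, and 30.5, 93.8 and 0.134 CPM in WT. The starts of these 3 genes, and of Cxcr4 for contrast, are printed from RefSeq (GRCm38.p6), 250 bases before to 50 after the start, on the strand of the gene. Capitals mark TATAAA or the RUNX core TGTGGT on either strand. The start shown for Ccr9 is internal to the GENCODE gene, which begins further upstream.
Ccr9 (chr9:123766961-123767260, plus strand): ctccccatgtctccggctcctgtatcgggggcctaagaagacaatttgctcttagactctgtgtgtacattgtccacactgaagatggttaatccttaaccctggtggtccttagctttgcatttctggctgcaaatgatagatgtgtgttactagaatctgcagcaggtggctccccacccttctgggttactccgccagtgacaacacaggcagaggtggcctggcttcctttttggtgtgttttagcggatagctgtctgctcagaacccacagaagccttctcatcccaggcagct
Cxcr6 (chr9:123806227-123806526, plus strand): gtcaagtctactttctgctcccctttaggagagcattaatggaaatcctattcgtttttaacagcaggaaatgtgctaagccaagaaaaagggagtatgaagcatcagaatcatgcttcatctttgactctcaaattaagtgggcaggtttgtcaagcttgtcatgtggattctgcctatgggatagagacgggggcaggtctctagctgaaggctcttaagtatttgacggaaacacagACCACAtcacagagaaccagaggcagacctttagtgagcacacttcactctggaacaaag
Ccr2 (chr9:124101933-124102232, plus strand): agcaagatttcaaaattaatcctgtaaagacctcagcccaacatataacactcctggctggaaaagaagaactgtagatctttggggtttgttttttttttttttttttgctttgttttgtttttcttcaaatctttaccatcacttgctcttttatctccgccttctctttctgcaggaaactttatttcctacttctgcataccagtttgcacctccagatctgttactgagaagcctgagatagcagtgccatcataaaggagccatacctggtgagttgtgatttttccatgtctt
Cxcr4 (chr1:128592250-128592549, minus strand): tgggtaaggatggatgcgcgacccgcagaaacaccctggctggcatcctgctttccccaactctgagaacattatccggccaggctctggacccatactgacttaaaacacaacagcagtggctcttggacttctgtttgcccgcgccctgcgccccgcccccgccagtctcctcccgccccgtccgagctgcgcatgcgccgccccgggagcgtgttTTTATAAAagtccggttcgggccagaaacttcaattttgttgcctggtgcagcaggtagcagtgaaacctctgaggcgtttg
The promoter table matched 6 of the 9 members; Ccr7, Cxcr5 and Ccr10 were not matched. The letters TATAAA occurred in the Cxcr4 window on each strand, at -32 and -30 from the start, in runs that overlap, and in none of the other 5. TATAAA is held by 13.6% of the 32851 promoters in the table. The RUNX core was found in Cxcr6, at -10, and in Cx3cr1, at -54, and is held by 16.8% of promoters. A FOXO motif, TGTTTAC (3.65% of promoters), and a KLF motif, GGGTGTG (7.95%), were found in 0 of the 6. Cxcr4 had 20 CpG dinucleotides, against 4 in Ccr9, 3 in Cxcr6 and 1 in Ccr2, where the median promoter had 7. These matches describe letters in a window and say nothing of binding.

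Cxcr5, the receptor for CXCL13 on B cells and follicular helper T cells (ENSMUSG00000047880.15, chr9:44511787-44561877, minus strand), was at 5.28, 3.73 and 4.97 CPM in CD103KO. In WT it was at 2.95, 3.00 and 4.97 CPM. WT replicates 1 and 2 lay below each CD103KO library, and WT replicate 3 lay within the CD103KO range. Over all libraries the log2 difference was 0.36 (SE 0.22; edgeR adjusted p = 0.686). Without WT replicate 3 it was 0.65 (adjusted p = 0.213, edgeR), and with the Xist term it was -0.09 (adjusted p = 0.936, edgeR). Cxcr5 shares 110 of its 3332 exon bases with Bcl9l on the opposite strand, which had 14907 to 19989 counts per library. The kit keeps strand, but the strand setting of the counting is not given in the sources used here.

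Of 10 listed markers of B cells, which carry CXCR5, 3 were called higher in CD103KO by edgeR (0.141% of tested genes called higher). The log2 fold changes of the 10 were all positive, with a median of 1.89. Cd79a, a B cell receptor chain, was at 2.14, 2.36 and 3.08 CPM in CD103KO and 0.748, 0.710 and 0.817 CPM in WT (log2 fold change 1.74, adjusted p = 0.00592, edgeR). Ms4a1, which encodes CD20, rose by 2.28 on the log2 scale (edgeR adjusted p = 0.0268), and Fcer2a, the low-affinity IgE receptor, by 2.58 (edgeR adjusted p = 0.00589). With the Xist term 0 of the 10 were called (edgeR) and their median was 1.45, while DESeq2 called 6 with all libraries and limma-voom 2. Summed, the list was at 32.3 to 38.4 CPM in CD103KO and 26.0 to 29.3 CPM in WT, of which Cd79b, the other signalling chain of the B cell receptor, held 24.6 to 26.0 CPM in CD103KO and 22.9 to 26.7 CPM in WT. The other 9 markers summed to 7.73, 8.44 and 12.4 CPM in CD103KO and 2.60, 2.58 and 3.16 CPM in WT. That sum was highest in replicate 3 within each group. Cxcr5 was highest in replicate 3 within WT and in replicate 1 within CD103KO. For follicular helper and other CD4 T cells, 0 of 9 markers were called (edgeR; 1 lower at an unadjusted p under 0.05). Bcl6, the follicular helper regulator, was at 16.6 to 18.8 CPM in CD103KO and 19.2 to 20.5 CPM in WT. Icos, a costimulatory receptor, was at 37.2 to 42.3 CPM in CD103KO and 33.3 to 38.6 CPM in WT. The part of either cell type in the level of Cxcr5 was not tested.

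Ccr4, the receptor for CCL17 and CCL22 (ENSMUSG00000047898.7, chr9:114490316-114504916, minus strand), was at 2.85, 3.08 and 4.63 CPM in CD103KO and 2.43, 3.38 and 2.98 CPM in WT. CD103KO replicate 3 was above the rest, which overlapped. Its log2 fold change was 0.26 (SE 0.20; edgeR adjusted p = 0.744), and 0.01 without CD103KO replicate 3.

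Ccr10, the receptor for CCL27 and CCL28 (ENSMUSG00000044052.3, chr11:101172997-101175443, minus strand), was the scarcest by count. It had 20, 11 and 54 counts in CD103KO replicates 1, 2 and 3, against 20, 13 and 59 counts in WT replicates 1, 2 and 3. In CPM that was 0.272, 0.161 and 0.714 in CD103KO and 0.267, 0.136 and 0.742 in WT. Replicate 3 was highest in both groups, and the groups overlapped nearly fully. On the log2 scale the difference was 0.03 (SE 0.68; edgeR adjusted p = 0.994), with a 95% interval from 35.2% to 296% of WT. It was 0.95 without WT replicate 3 and -0.80 without CD103KO replicate 3. In the fit with all libraries and no replicate term, a change of 2-fold in either direction lay inside the 95% interval. With the replicate block the log2 fold change was 0.05, with a smaller SE of 0.32 (adjusted p = 0.981, edgeR).

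Cx3cr1, the fractalkine receptor of cytotoxic effector T cells and monocytes (ENSMUSG00000052336.7, chr9:119901616-120069879, minus strand), was at 0.681, 0.440 and 0.886 CPM in CD103KO and 0.547, 0.376 and 0.704 CPM in WT. Replicate 3 was again highest in both groups. CD103KO exceeded WT by 0.31 on the log2 scale, without passing (SE 0.34; edgeR adjusted p = 0.821). Leaving out CD103KO replicate 3 gave 0.05, and leaving out WT replicate 2 gave 0.10. The value was 0.53 with CD103KO replicate 2 left out, and 0.55 with WT replicate 3 left out. With the Xist term the log2 fold change was -0.07.

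Ccr2, the receptor for CCL2 on monocytes and activated T cells (ENSMUSG00000049103.14, chr9:124101950-124113557, plus strand), was at 0.572, 0.382 and 1.47 CPM in CD103KO and 0.881, 0.804 and 1.03 CPM in WT. CD103KO replicate 3 was the highest library and CD103KO replicate 2 the lowest. Fitted over all libraries, the log2 fold change was -0.16 (SE 0.43; edgeR adjusted p = 0.944), -0.92 without CD103KO replicate 3, 0.17 without CD103KO replicate 2, 0.04 without CD103KO replicate 1, -0.24 without WT replicate 2 and -0.05 without WT replicate 3. Myeloid and dendritic cell markers were called for 0 of 8 tested genes (edgeR; 0 at an unadjusted p under 0.05, and 0 called by DESeq2). Their sum was 46.2 to 48.7 CPM in CD103KO and 44.7 to 53.6 CPM in WT, of which Cst3 held 40.5 to 42.1 CPM in CD103KO and 39.5 to 45.5 CPM in WT. Fcgr3, a low-affinity IgG receptor, was at 0.661 to 0.871 CPM in CD103KO and 0.877 to 1.08 CPM in WT, and Csf1r, the macrophage growth factor receptor, at 0.0817 to 0.159 CPM in CD103KO and 0.136 to 0.240 CPM in WT. Siglech, of plasmacytoid dendritic cells, was at 0 counts in each library, which allows up to 0.0440 CPM at 3 counts in the shallowest. NK and innate-like markers, of which Klrd1 and Prf1 are also expressed by CD8 T cells, were called for 0 of 6 tested genes (edgeR; 0 at an unadjusted p under 0.05, and 0 called by DESeq2). Klrd1 was at 113 to 117 CPM in CD103KO and 98.3 to 121 CPM in WT, and Klrb1c, which encodes NK1.1, at 1.03 to 1.57 CPM in CD103KO and 1.38 to 1.54 CPM in WT.

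Of the 54 values of the 9 receptors (9 genes in 6 libraries), 1 was not a whole number within the precision of the table: Ccr2 in WT replicate 3, at 82.18 expected counts. Expected counts can be fractional where reads match more than 1 gene, and the level of Ccr2 is uncertain to the extent that such reads were shared out.

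**Figure D4:**
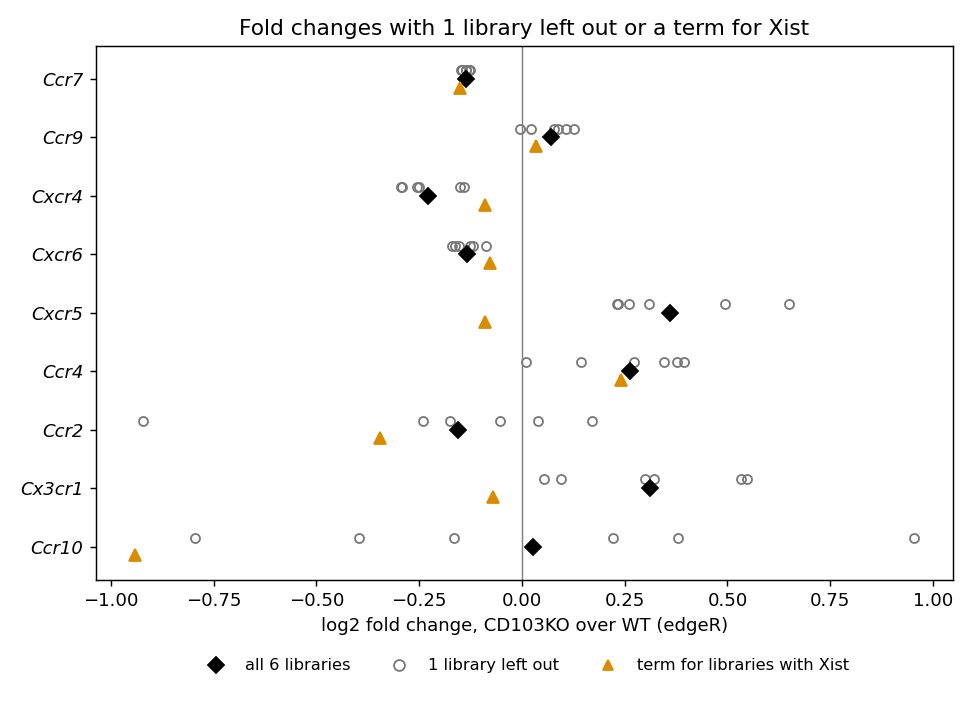
The log2 fold change of each receptor gene, CD103KO over WT, with all 6 libraries (diamonds), with each library left out in turn (circles) and with a term for libraries with Xist reads (triangles). Ccr7 stays between -0.15 and -0.13, while Ccr10 ranges from -0.94 to 0.95 and Cxcr5 is at -0.09 with the term.

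Other chemokine receptors were scarce or near the floor. Of 13 listed, 5 had enough counts to be tested and 0 were called (edgeR; 0 at an unadjusted p under 0.05, and 0 called by DESeq2), with a median log2 fold change of -0.05. Ccrl2, an atypical receptor that presents chemerin, was at 0.218, 0.602 and 0.397 CPM in CD103KO and 0.134, 0.167 and 0.528 CPM in WT.

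Ligand transcripts were mostly scarce in these cells. Of 19 listed ligands, 8 were tested and 0 called (edgeR, with 0 at an unadjusted p under 0.05, and 0 called by DESeq2). The log2 fold change was positive for 1 and negative for 7, with a median of -0.30. Over all tested genes 6595 were positive and 6875 negative. Ccl5, for which WT replicate 3 was the highest library, was at -1.36 with all libraries (adjusted p = 0.675, edgeR). Ccl27a, a ligand of CCR10, was at 0.395 to 0.426 CPM in CD103KO and 0.481 to 0.679 CPM in WT, a log2 difference of -0.48 (SE 0.26; edgeR adjusted p = 0.646). Ccl3, an inflammatory chemokine, was at 0.150 to 0.291 CPM in CD103KO and 0.219 to 0.704 CPM in WT, with WT replicate 3 highest. With the Xist term, Ccl5 was the ligand called (log2 fold change -2.66, adjusted p = 0.0116, edgeR; 0.111% of genes called), against 0.53 (adjusted p = 0.489, edgeR) without WT replicate 3. Outside CD103KO replicate 3, the listed stromal ligands of CCR7 and CXCR4 were below the floor of 3 counts. In CD103KO replicate 3, where the floor was 0.0397 CPM, Ccl21a had 23 counts and Cxcl12 had 14. Ccl21a had at most 0.304 CPM in CD103KO and 0.0104 CPM in WT, and Cxcl12 was at most 0.185 CPM in CD103KO and at 0 counts in WT, with CD103KO replicate 3 the highest library for each. Lymph node stroma markers were called for 0 of 3 tested genes (edgeR; 1 lower at an unadjusted p under 0.05). Cdh5, an endothelial cadherin, was at 0.198 to 0.235 CPM in CD103KO and 0.340 to 0.480 CPM in WT, and Col1a1, a collagen, at 0.422 to 0.436 CPM in CD103KO and 0.147 to 0.418 CPM in WT. Pdpn was at 0 counts in each library.

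Most genes listed as acting downstream of chemokine receptors were abundant: 30 of 34 averaged above 50 CPM in both groups. Rgs1, Rgs16 and Rgs18, from a family that shortens G protein signals, averaged below 5 CPM in both. Rgs1 was at 3.99, 2.80 and 3.60 CPM in CD103KO and 4.65, 3.37 and 6.10 CPM in WT, where the groups overlapped (log2 fold change -0.44, SE 0.21, edgeR adjusted p = 0.616). All 34 listed were tested and 0 called (edgeR; unadjusted p under 0.05 for 2 higher and 0 lower, and 0 called by DESeq2), of which 21 were positive and 13 negative on the log2 scale, and the median was 0.02. Prex1, an exchange factor for Rac that responds to G protein subunits, was at 513, 521 and 511 CPM in CD103KO and 483, 477 and 469 CPM in WT. Elmo1, the partner of the Rac activator DOCK2, was at 163, 173 and 175 CPM in CD103KO and 159, 157 and 155 CPM in WT. For both, the lowest CD103KO library lay above the highest WT library. Log2 fold changes were 0.11 and 0.12, and neither passed (adjusted p = 0.432 and 0.455, edgeR).

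Genes for lymph node entry and exit, listed beside Ccr7, were called for 0 of 15 (edgeR; unadjusted p under 0.05 for 1 higher and 2 lower, and 0 called by DESeq2), with a median log2 fold change of -0.03. Klf2, a transcription factor known to drive S1pr1, was at 316, 324 and 301 CPM in CD103KO and 370, 348 and 323 CPM in WT. CD103KO replicate 2 lay just above WT replicate 3, and the log2 fold change was -0.15 (SE 0.05, adjusted p = 0.497, edgeR). Itgb1, the integrin beta 1 chain, was at 107, 97.9 and 106 CPM in CD103KO and 91.0, 91.0 and 101 CPM in WT (log2 fold change 0.13, adjusted p = 0.535, edgeR). Of 10 naive CD8 T cell markers, 0 were called (edgeR; unadjusted p under 0.05 for 1 higher and 1 lower). Il7r, a survival cytokine receptor, was at 275 to 285 CPM in CD103KO and 294 to 312 CPM in WT, and Cd3g, a T cell receptor complex chain, at 781 to 802 CPM in CD103KO and 721 to 764 CPM in WT. Ly6c2, a gene behind the sort, was at 31.8 to 39.7 CPM in CD103KO and 16.6 to 30.7 CPM in WT. Il2rb, the interleukin-15 receptor beta chain, was at 262 to 317 CPM in CD103KO and 241 to 265 CPM in WT. Summed, memory and effector markers were at 741 to 766 CPM in CD103KO and 665 to 744 CPM in WT, with WT replicate 3 the highest WT library. Their part in the receptor levels was not tested.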

How the data were processed

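Polyadenylated RNA of 3 CD103KO and 3 WT samples was sequenced from libraries made with a stranded kit, per the labels' protocols. The submitters' processing notes name STAR 2.7.0f, RSEM, cutadapt 1.18 and bcl2fastq 2.20, with GRCm38 and mm10. The sources used here do not give the annotation, strand setting or RSEM version. The authors deposited expected counts per gene, estimates that are not normalized, of which 6.48% were not whole. They were rounded for testing.

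CD103KO was compared with WT over all 13470 genes passing filterByExpr (minimum count 10), using edgeR 4.0.16 in R 4.3.3, TMM factors, the quasi-likelihood test with group as the sole factor and Benjamini-Hochberg adjustment at 0.05. The test was checked on simulated data. CPM were scaled by TMM, and the SE is the log2 fold change over the square root of F. Alternatives were DESeq2 1.42.0, limma-voom (limma 3.58.1), other normalizations and filters, unrounded counts, a replicate block, each library left out and a term for libraries with Xist above 1 CPM. Fits without replicate 3 of both groups, or without libraries with Xist reads, were added after seeing the data. Total counts were 68292475 to 94347034, and floors (3 counts) cover counting error only. Within groups, no pair of libraries was alike within sampling noise (ratio of chi-square to degrees of freedom, 12.7 to 26.4).

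Coordinates and exon lengths come from GENCODE M21 on GRCm38, and promoters from RefSeq (GRCm38.p6). Plots used matplotlib 3.10.9.

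The receptors and gene lists were chosen with earlier results of these data known. Named are the 9 receptors, Itgae, Xist, called genes of each list (up to 3) or its 2 genes of smallest p, and the genes most alike in pattern; a gene that this rule names is not reported here. Chosen after their values were seen were Cd8a, Cd44, Ccl5, Gzmk, Fyco1, AC165425.1, Bcl9l, Cst3, Siglech, Prf1, Ccl21a, Cxcl12, Pdpn, Cd79b, Rgs1, Rgs16 and Rgs18.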

Additional observations from a re-analysis of the deposited data

How the results depend on the processing

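No receptor gene passed at an adjusted p of 0.05 under any of the 17 alternative settings. These gave 150 values over the 9 genes, with adjusted p of 0.144 to 0.999 (both ends with DESeq2). The direction was kept in 138 of the 150 values and turned in 12. Ccr7, Cxcr4, Cxcr6 and Ccr4 kept their direction throughout. Leaving out each library in turn, Ccr9 ran from -0.0035 (without WT replicate 2) to 0.13, Ccr2 from -0.92 to 0.17, Cx3cr1 from 0.05 to 0.55 and Ccr10 from -0.80 to 0.95 in log2 fold change. With the Xist term, Ccr10 was at -0.94, Cx3cr1 at -0.0695 and Cxcr5 at -0.0904, and the same 3 turned among libraries without Xist reads (-0.942, -0.0694 and -0.0899). The cause was not tested. A filter of 1 CPM in 3 libraries left out Ccr2, Cx3cr1 and Ccr10, which have no value there. Over all genes, 30 were called, 112 with no filter on low counts, 128 with DESeq2, 15 with the Xist term and 13 among libraries without Xist reads, with 1 WT library. Leaving out each library gave 19 (without CD103KO replicate 2) to 59 calls (without CD103KO replicate 1), with 52 without WT replicate 3, and 59 without replicate 3 of both groups. Over all tested genes, replicate numbers did not pair the libraries. Deviations from group means of same-numbered libraries correlated at -0.28 to 0.03, and 1 of 6 libraries correlated best with its own number. Single genes could differ from this: for Ccr2, Cx3cr1 and Ccr10, replicate 3 was highest in both groups. With the replicate block, 24 genes and 0 receptors were called. The block lowered the SE of Ccr9 and of the 5 scarce receptors, for Ccr10 from 0.68 to 0.32 and for Cx3cr1 from 0.34 to 0.26. It raised the SE of Ccr7, Cxcr4 and Cxcr6. Without the block, the SEs of the receptors were 1.95 (Cx3cr1) to 9.35 (Ccr9) times those that counting alone gives. What made up the rest of these SEs was not tested. For the 5 scarce receptors counting alone gives an SE of 0.066 to 0.217 on the log2 scale.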

Other observations

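Each receptor above 1 CPM was set beside 7614 or 7615 protein-coding genes of at least 10 CPM by Pearson's r of log2(CPM + 0.5) over the 6 libraries. These share library, depth and group, so r is a description. Group means were not removed, so genes that split by group in the same way as a receptor score high. For Ccr7 the most alike were Ovca2 (r = 0.998) and Spryd7 (0.997), and 130 genes had r above 0.9. For Ccr9 they were Capza1 (0.995) and Arl6ip1 (0.993), for Cxcr4 Rtl8b and Zfp24 (both 0.996), and for Cxcr6 Arhgap18 (0.996) and Ctsl (0.981). Ccr4 was most like Ndufb6 (0.982) and Igsf8 (0.969), and Cxcr5 most like Riok1 (0.989) and Fkbp3 (0.986). Between 21 and 182 genes had r above 0.9 with each receptor, which 6 points readily give.

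Gzmk, a granzyme of memory CD8 T cells, was at 0.504, 0.308 and 0.450 CPM in CD103KO and 0.107, 0.0835 and 2.34 CPM in WT, where WT replicate 3 was highest, as it was for Ccl5. Its log2 fold change was -0.99 with all libraries (adjusted p = 0.813, edgeR) and 2.14 without WT replicate 3 (adjusted p = 0.125, edgeR).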
